A study of Danio rerio with 12 samples.

Results

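To ask what a higher dose of Hand2 did to the transcriptome of the early myocardium, cardiomyocytes of 20 hpf (hours post-fertilization) zebrafish embryos overexpressing *hand2* in the heart muscle were compared with those of their WT siblings. The *hand2* OE embryos carry *Tg(myl7:hand2-p2a-EGFP)*, in which the promoter of the myosin light chain gene *myl7* drives *hand2* and EGFP in cardiomyocytes, and no *hand2* mutation is named for either group. Messenger RNA of FACS-sorted cardiomyocytes was sequenced in 3 libraries of *hand2* OE and 3 libraries of WT embryos, which the study describes as biologically independent samples. The description of the sort is not uniform, with the sorted cells given as *Tg(myl7:EGFP)*+ in one place and as *Tg(myl7:mCherry)*+ in another. The table of this experiment lists 21119 of the 22976 genes listed over the whole series, and the 16510 genes with a mean normalized read count of at least 5 over the 6 libraries were tested. The series holds 6 further libraries, from *hand2 FLD*-/- embryos, which are homozygous for a deletion that spans *hand2*, and from their *hand2 FLD*+/? siblings.

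Hand2 is a basic helix-loop-helix transcription factor of the lateral plate mesoderm, which forms the heart, the pectoral fin mesenchyme and the mesothelium. It works as a dimer with E proteins and other bHLH factors, and in zebrafish it is needed for cardiomyocytes to form in normal number and to move to the midline, where both cardiac fields fuse. Migrating cardiomyocytes of this stage are an epithelial sheet that lies next to endoderm, yolk and endocardium and moves over a matrix rich in fibronectin.

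Each value below is a normalized read count, that is the number of reads of a gene after scaling with 1 factor per library and rounding to a whole number. The libraries had estimated depths of 5002590 to 5764508 counted reads, and their normalized counts summed to between 5322231 and 5425823. A gene was called upregulated or downregulated where limma on log2(value + 1) gave a Benjamini-Hochberg adjusted p of 0.05 or less and a change above 1.5-fold, and "rose" and "fell" are used of called genes only. Across all genes the median log2 fold change was 0.00.

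The sorted cells had the transcripts of cardiomyocytes in both groups. *myl7* had 2172, 2213 and 2171 normalized reads in WT against 2313, 2019 and 2259 in *hand2* OE libraries, and the thin-filament gene *tnnt2a* had 2133, 2147 and 2137 in WT against 2256, 1955 and 2179 in *hand2* OE. Of 22 cardiomyocyte markers tested, limma called 0, with a median log2 fold change of 0.02 and 8 at an unadjusted p under 0.05, 4 of them higher and 4 lower. *hand2* OE replicate 2 stood apart, with correlations of 0.884 and 0.888 to the other *hand2* OE libraries where each other library reached at least 0.902 with one of its own group. It had the highest summed level of epidermal markers, 10117 against 4215 to 7132 in the other 5 libraries, of neural markers, 6479 against 3424 to 4213, and of neural crest markers, 4893 against 2387 to 3446. It also had 606 normalized reads of the notochord and cartilage collagen *col2a1a*, against 13 to 86 in the other libraries. Its part in the results was not tested beyond leaving it out, and the calls of named genes that were lost without it are given beside them. The epidermal claudin gene *cldni* was at 15 in WT replicate 2 and at 1 in *hand2* OE replicate 1, against 115 to 302 in the other libraries.

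The overexpressed gene came out only moderately higher. *hand2* (ENSDARG00000008305, danRer11 chromosome 1 from 38193147 to 38195012, minus strand) had 1671, 1667 and 1611 normalized reads in WT against 2159, 1939 and 2102 in *hand2* OE libraries. Every *hand2* OE library was above every WT library, and the difference was 0.32 ± 0.05 on the log2 scale (SE, n = 3 per group, adjusted p = 0.0084 from limma), below the 1.5-fold threshold. The exact two-sided permutation test gave p = 0.1, the smallest value that 3 libraries against 3 allow, and with the variance trend of limma switched off the adjusted p was 0.18. The transgene carries the *hand2* coding sequence, so that reads from both copies count into this gene and cannot be told apart. *hand2* is a short gene with 0.996 normalized reads per base of its span, a density that only 9 of 21119 genes exceeded. For genes averaging 500 or more, the median absolute log2 fold change was 0.20 in the 403 genes with under 0.01 normalized reads per base and 0.04 in the 46 genes with 0.5 or more, and whether the density of reads limits the measured change of *hand2* was not tested. Nor was it tested for *myl7*, which had 0.28 normalized reads per base, a density that 175 of 21119 genes exceeded.

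In all, 418 genes were upregulated in *hand2* OE, 2.53% of those tested, and 259 were downregulated, 1.57%, together 4.1%. An adjusted p of 0.05 or less at any fold was reached by 6.63% and an unadjusted p under 0.05 by 20.9%. In 13.1% of genes every *hand2* OE library was above every WT library and in 12.9% below, shares against which the non-overlapping groups named below are to be read. Protein-coding genes made up 416 of the 418 upregulated and 255 of the 259 downregulated genes. Their share among all genes tested was not determined, so these counts do not set the called genes apart. The upregulated genes were expressed at a median of 137 normalized reads in WT and 341 in *hand2* OE, and the downregulated genes at a median of 381 in WT and 202 in *hand2* OE. Changes above 2-fold were seen in 268 upregulated and 119 downregulated genes, and changes above 4-fold in 99 and 31. Among genes with a WT mean of 1000 or more, 5 of 1298 rose and 18 fell. Without *hand2* OE replicate 2, 181 of the 418 and 143 of the 259 genes were still called, and in limma without the trend 117 and 57 were.

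**Figure D1:**
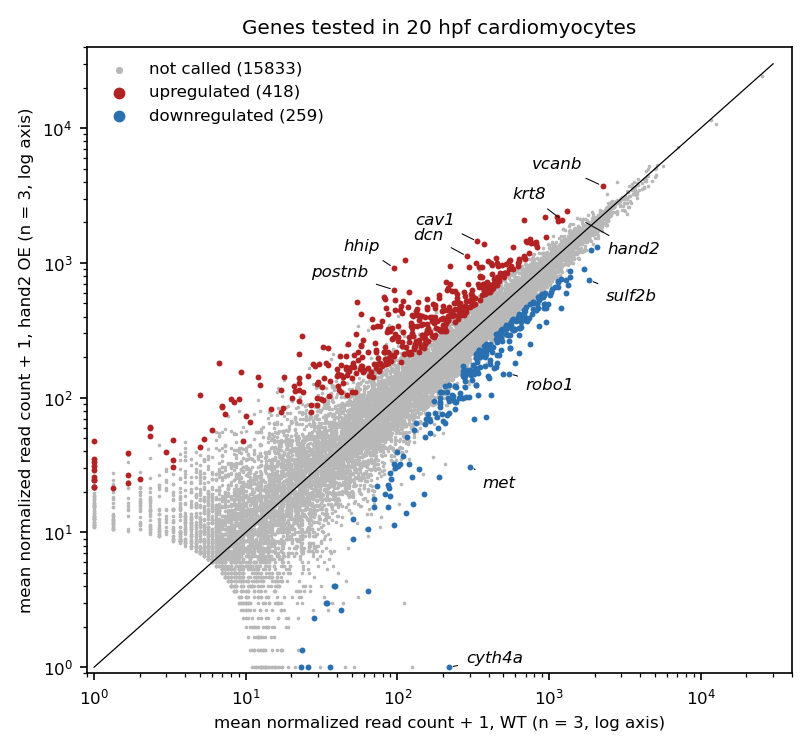
Mean normalized read count + 1 of each gene tested in WT (x axis) and *hand2* OE (y axis) cardiomyocytes, both on log axes and over 3 libraries, with 418 upregulated genes in red, 259 downregulated genes in blue and the line of equality in black. *hand2* lies just above the line, while *cyth4a* lies on the lower edge because it is at 0 in all *hand2* OE libraries.

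The 12 largest rises were of genes of varied kinds, from a collagen and a protease to a keratin and a nuclear repressor. *col6a1*, which encodes a chain of the microfibrillar collagen VI, had 44, 20 and 3 normalized reads in WT against 308, 294 and 256 in *hand2* OE (log2 fold change 4.2 ± 0.75, adjusted p = 0.014), so that the groups were far apart while the WT libraries spread widely. *htra1b*, a secreted serine protease, went from 121, 180 and 35 to 1025, 1060 and 1063 (log2 fold change 3.50 ± 0.48, adjusted p = 0.0047). *hhip*, which encodes a membrane protein that binds Hedgehog ligands and limits their signal, went from 119, 66 and 96 to 883, 1115 and 759 (log2 fold change 3.30 ± 0.23, adjusted p = 2.0e-04). These *hand2* OE libraries exceeded the highest WT library several times over in both genes. Of the other 9 genes with the largest rises, *fmoda* (3.76) is a small leucine-rich proteoglycan of the fibromodulin type, *itga4* (2.85) an integrin that binds fibronectin and VCAM, *krt94* (2.87) a keratin and *snai2* (2.96) a repressor known from EMT, with log2 fold changes in parentheses. *nav1b* (3.27), *trabd2b* (2.90), *ehd2b* (2.89), *capn2a* (2.83) and *atp1b2b* (2.78) completed the set. *trabd2b* encodes a membrane protease that acts on Wnt ligands, *capn2a* a calpain, and *ehd2b* a protein known in mammals from the neck of caveolae. The calls of *col6a1*, *fmoda*, *ehd2b* and *capn2a* were lost without *hand2* OE replicate 2, with an adjusted p from 0.065 to 0.13, though their log2 fold changes stayed between 2.74 and 4.18.

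**Figure D2:**
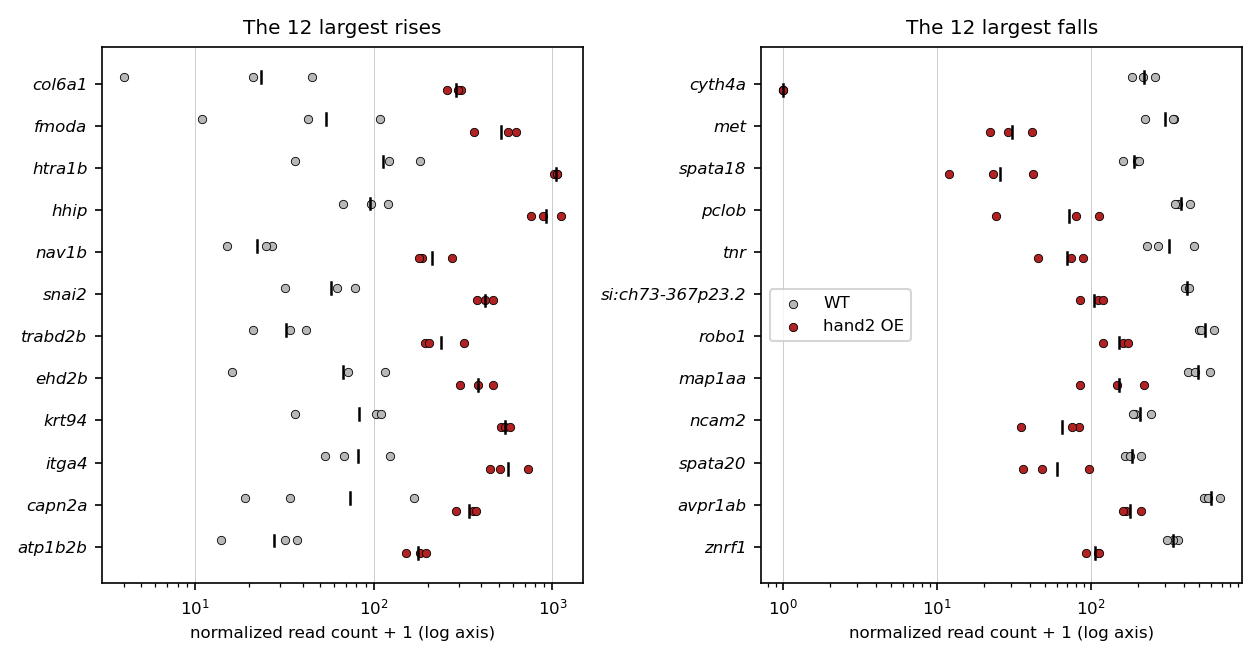
Normalized read count + 1 (log axis) in each WT library (grey) and each *hand2* OE library (red) for the 12 genes with the largest rise (left) and the 12 with the largest fall (right) among called genes with a mean of 100 or more and no overlap between groups. The short black lines are group means, and *cyth4a* is at 0 in all 3 *hand2* OE libraries.

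Genes of the mesothelium and epicardium, the sheet that forms beside the heart from the same lateral plate, gave the highest share of rises of the lists that describe a tissue or process. Of 27 such genes tested, 9 rose and 0 fell, against 2.53% and 1.57% of all genes, and the median log2 fold change was 0.77. The members of this and the other lists were chosen with earlier results of these data known. The shares and their order are therefore a description and no evidence for a tissue. *jam2b*, a junctional adhesion molecule of the mesothelial and hepatopancreatic lateral plate in zebrafish, had 88, 126 and 74 normalized reads in WT against 507, 587 and 482 in *hand2* OE (log2 fold change 2.47 ± 0.21, adjusted p = 5.5e-04). *wt1b*, a zinc finger factor of the epicardium and pronephros, had 59, 36 and 47 in WT against 154, 162 and 173 in *hand2* OE (1.79 ± 0.28 on the log2 scale, adjusted p = 0.0075). In both genes the *hand2* OE libraries lay close together and above all WT libraries.

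The keratin pair of simple epithelia was the most abundant among them. *krt8* had 1224, 1271 and 1161 normalized reads in WT against 2116, 2014 and 2105 in *hand2* OE (log2 fold change 0.77 ± 0.05, adjusted p = 1.7e-04), and *krt18a.1*, which encodes its type I partner, had 1101, 1219 and 1056 against 2210, 2116 and 2239. Both were lower in *hand2* OE replicate 2 than in the other *hand2* OE libraries. Both were also listed among the epidermal markers, whose sum includes them and was highest in that library. The part of epidermal cells in their rise was not tested. The Wnt antagonist *sfrp5* (250, 359 and 271 against 699, 736 and 667), the transglutaminase *tgm2b* (86, 85 and 83 against 252, 378 and 292), the retinoic acid receptor *raraa* and the zinc finger gene *bnc2* rose as well. Among those that were not called, the retinoic acid producing enzyme *aldh1a2* had 22, 60 and 85 in WT against 100, 206 and 186 in *hand2* OE (adjusted p = 0.088). The epicardial factors *tcf21* and *tbx18* were low throughout, at 14 to 57 and at 0 to 9 normalized reads. Of the 9 rises, 7 were called without *hand2* OE replicate 2, where *raraa* and *bnc2* were not, and 6 without the trend.

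Transcription factors and signals of lateral plate and fin mesenchyme rose too, with 6 of 29 tested called up (20.7%), 1 called down (3.45%) and a median log2 fold change of 0.55. Some marker lists of other cells had such medians, 0.71 for neural crest, 0.67 for melanophore and pharyngeal arch and 0.55 for endothelial markers. Others did not, with −0.15 for erythroid and myeloid markers. Without *hand2* OE replicate 2 the median was 0.80 in the lateral plate list and 0.53, 0.32 and 0.12 in the first 3 marker lists. The homeobox gene *msx3* had 187, 264 and 210 normalized reads in WT against 960, 937 and 958 in *hand2* OE (log2 fold change 2.12 ± 0.13, adjusted p = 1.4e-04). *prrx1a*, a homeobox gene of limb and other mesenchyme, had 117, 133 and 156 in WT against 445, 491 and 605 in *hand2* OE (1.91 ± 0.17 on the log2 scale, adjusted p = 6.3e-04). *fgf10a*, which encodes the mesenchymal FGF of the fin bud, had 110, 59 and 89 in WT against 321, 509 and 413 in *hand2* OE (2.28 ± 0.26, adjusted p = 0.0022). None of the 3 genes overlapped between groups. *cyp26b1*, whose enzyme degrades retinoic acid, *msx1b* and *twist1a*, a bHLH factor that can pair with Hand proteins in mouse, completed the rises, and the calls of *msx1b* and *twist1a* were lost without *hand2* OE replicate 2, in which both were highest (287 and 395). *prdm1a* was the member that fell, from 546, 686 and 663 to 422, 326 and 416, and its call was lost there too. The fin field gene *tbx5a* had 1011, 1070 and 897 in WT against 978, 850 and 836 in *hand2* OE and was not called.

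Of 20 factors and markers of EMT, 3 rose (15%, against 2.53% of all genes) and 0 fell. Besides *prrx1a* and *twist1a* this was *snai2*, with 78, 31 and 61 normalized reads in WT against 378, 461 and 419 in *hand2* OE (log2 fold change 2.96 ± 0.32, adjusted p = 0.0015). The adhesion molecule that marks cardiomyocytes as well as mesenchyme, N-cadherin, was flat, with *cdh2* at 4487, 4585 and 4328 in WT against 4627, 4125 and 4473 in *hand2* OE. *zeb2a* had 2199, 2274 and 2102 in WT against 1894, 1781 and 1814 in *hand2* OE, a difference of −0.26 on the log2 scale that passed the adjusted p (0.014) and not the fold threshold.

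**Figure D3:**
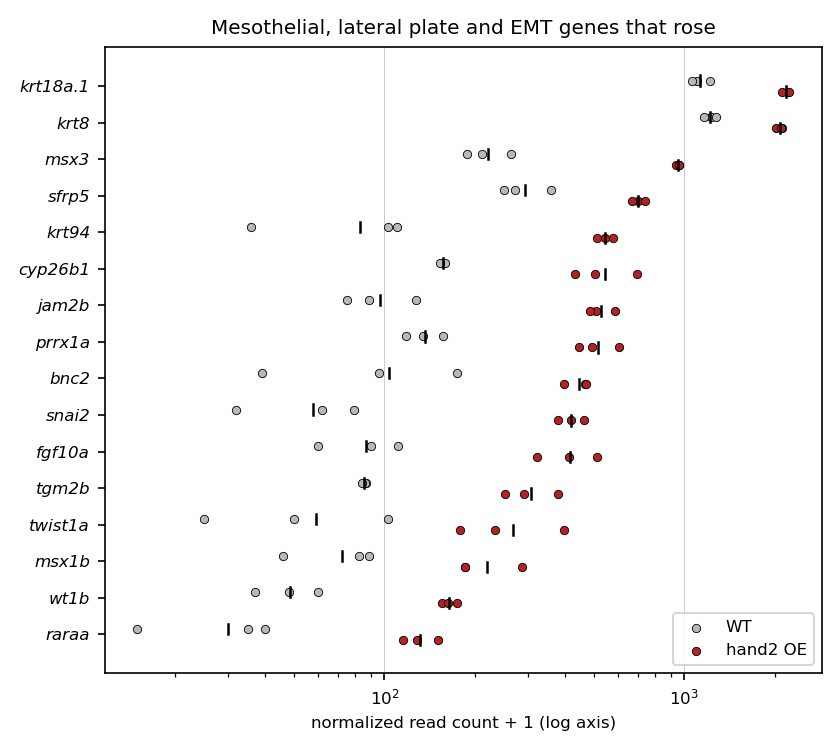
Normalized read count + 1 (log axis) in each WT library (grey) and each *hand2* OE library (red) for the 16 called genes that rose from the lists of mesothelial and epicardial, limb and lateral plate, and EMT genes, ordered by their *hand2* OE mean. Black lines are group means, and the *hand2* OE points lie to the right of the WT points in each gene.

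Matrix genes were a large group among those that rose. Of 88 glycoproteins, proteoglycans and matrix-modifying enzymes tested, 18 rose (20.5%) and 1 fell (1.14%), with a median log2 fold change of 0.25. Of all genes 2.53% rose and 1.57% fell. Summed over the list, the level was 66117 to 69266 in WT and 70977 to 75106 in *hand2* OE. *dcn*, the small collagen-binding proteoglycan decorin, had 267, 269 and 326 normalized reads in WT against 1087, 1189 and 1079 in *hand2* OE (log2 fold change 1.96 ± 0.10, adjusted p = 7.7e-05). *emilin1a*, an elastic fibre glycoprotein, had 337, 346 and 353 in WT against 969, 966 and 858 in *hand2* OE (1.43 ± 0.09 on the log2 scale, adjusted p = 1.3e-04). In both genes the difference was many times the spread of either group.

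The most abundant member that rose was *vcanb*, a versican of the cardiac jelly, with 2184, 2315 and 2261 normalized reads in WT against 3985, 3395 and 3787 in *hand2* OE (log2 fold change 0.72 ± 0.06, adjusted p = 3.8e-04). The fibronectin gene *fn1b* had 26, 122 and 103 in WT against 532, 427 and 418 in *hand2* OE (2.7 ± 0.50 on the log2 scale, adjusted p = 0.015, and 0.065 without *hand2* OE replicate 2). The other fibronectin gene, *fn1a*, had 1188, 1447 and 1069 in WT against 1833, 1825 and 1673 in *hand2* OE, a log2 fold change of 0.54 that passed the adjusted p (0.017) and stayed under 1.5-fold. So *fn1a* remained the more abundant of the pair in every library. Its adjusted p was 0.070 without *hand2* OE replicate 2 and 0.17 without the trend.

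Enzymes that build collagen were among the matrix genes that rose. The lysyl hydroxylase *plod2* had 398, 357 and 366 normalized reads in WT against 709, 588 and 634 in *hand2* OE, the prolyl hydroxylase subunit *p4ha1b* 351, 390 and 470 against 618, 656 and 626, and the procollagen C-proteinase enhancer *pcolcea* 755, 697 and 830 against 1513, 1416 and 1280. The crosslinking enzyme *loxl2b* had 308, 288 and 257 in WT against 482, 613 and 480 in *hand2* OE. *loxl1*, a relative of it, was at 0, 1 and 1 in WT and at 13, 42 and 22 in *hand2* OE, at least 8.56-fold higher when the WT mean is set to a floor of 3. Proteases of the matrix rose too, with *adamts1* at 421, 346 and 487 against 921, 812 and 730, while *adamts8a* was the member that fell, from 166, 133 and 156 to 92, 41 and 54. Some abundant matrix genes of the heart were flat, among them the hyaluronan and proteoglycan link gene *hapln1a* (7034, 7339 and 6972 against 7605, 6671 and 7418). *agrn*, the agrin gene, was lower by 0.23 on the log2 scale (adjusted p = 0.017), again under 1.5-fold. Of the 18 rises, 11 were called without *hand2* OE replicate 2 and 4 without the trend. The calls of *p4ha1b*, *loxl1* and *adamts8a* were among those lost without that library.

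Of 40 collagen genes, 3 rose (7.5%, against 2.53% of all genes) and 0 fell, all 3 from a low WT level. Besides *col6a1* they were *col5a3a*, a chain of the fibril-regulating collagen V, with 79, 100 and 80 normalized reads in WT against 311, 279 and 382 in *hand2* OE (log2 fold change 1.89 ± 0.20, adjusted p = 0.0013), and *col11a1b*, with 1, 1 and 22 in WT against 90, 109 and 90 in *hand2* OE. *col5a3a* was the one of the 3 that stayed called without *hand2* OE replicate 2. The abundant collagens did not follow. *col18a1a*, which encodes a basement membrane collagen, had 4506, 4577 and 4331 in WT against 3916, 3577 and 3755 in *hand2* OE, lower by 0.25 on the log2 scale (adjusted p = 0.0075), and *col15a1b* had 4875, 5182 and 4856 in WT against 5401, 4558 and 5056 in *hand2* OE.

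Receptors and ligands of migration and adhesion changed in both directions, with 10 of 56 tested called up (17.9%) and 2 down (3.57%), of which 7 and 2 stayed called without *hand2* OE replicate 2 and 5 and 1 without the trend. *alcamb*, an immunoglobulin-type adhesion molecule of early cardiomyocytes, had the smallest p of all rises together with *cav1* below. It had 647, 744 and 671 normalized reads in WT against 1950, 2126 and 2130 in *hand2* OE (log2 fold change 1.59 ± 0.07, adjusted p = 3.1e-05), whereas its paralog *alcama* had 2908, 2951 and 2890 in WT against 2957, 2645 and 2966 in *hand2* OE. The integrin genes *itga4* (122, 52 and 67 against 510, 724 and 446), *itga9* and *itgb3b* rose and *itga11a* fell from 66, 91 and 103 to 16, 21 and 24. The call of *itga9* was lost without *hand2* OE replicate 2 (adjusted p = 0.058), and *itgb5* was at the threshold, with a log2 fold change of 0.59 and no call in 13 of 15 alternatives. *cxcl12b*, the gene of a chemokine of cell guidance, had 596, 560 and 468 in WT against 1009, 1027 and 1074 in *hand2* OE. The sphingosine 1-phosphate receptor gene *s1pr5a* and the scaffold gene *slc9a3r1a* rose by 0.66 and 0.80 on the log2 scale. *ncam2* was the other member that fell, from 190, 244 and 185 to 82, 34 and 74. The myosin heavy chain gene *myh9b* of the non-muscle cytoskeleton, named for its small p, had 890, 1032 and 894 in WT against 2174, 2340 and 2027 in *hand2* OE (log2 fold change 1.22 ± 0.08, adjusted p = 1.4e-04).

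Several genes that lie side by side on chromosome 25 changed together. Of 10 neighbouring tested genes between 17934426 and 18679071 (danRer11), 5 rose and 1 fell, where 15 of 16285 overlapping windows of 10 genes held 5 or more called genes. Those 15 windows lay on chromosomes 4, 10 and 25 only and largely share their genes, so that they are not separate cases. The chromosome 25 window and its genes were picked after their values were seen. *cav1*, which encodes the main coat protein of caveolae, had 369, 331 and 309 normalized reads in WT against 1337, 1502 and 1483 in *hand2* OE (log2 fold change 2.1 ± 0.09, adjusted p = 3.1e-05). Its neighbour *cav2* had 39, 51 and 44 in WT against 133, 313 and 159 in *hand2* OE, and the LIM gene *tes*, known from focal adhesions in mammals, had 192, 160 and 207 against 481, 613 and 550. The ligand gene *kitlga* had 15, 11 and 7 in WT against 105, 139 and 177 in *hand2* OE. *poc1b* had 43, 60 and 33 in WT against 87, 196 and 159 in *hand2* OE. Its call was lost without *hand2* OE replicate 2 (adjusted p = 0.13). In the same interval *met*, the receptor of hepatocyte growth factor, fell from 221, 345 and 339 to 28, 40 and 21 (log2 fold change −3.32 ± 0.32, adjusted p = 9.7e-04), while *dusp6* had 2273, 2001 and 1968 in WT against 1715, 1749 and 1982 in *hand2* OE and was not called. *met* is the next tested gene after *cav1*, on the same strand.

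Genes of the cell cycle were higher as a group. Of 70 tested, 18 rose (25.7%, against 2.53% of all genes) and 0 fell. A log2 fold change above 0 was found in 65 of them, and the median was 0.62, against 0.00 over all genes. The summed level was 19388 to 19718 in WT libraries against 24901, 32615 and 27703 in *hand2* OE libraries, so that it was highest in replicate 2, the library with the most neural and epidermal marker reads. *cdk1*, the kinase of mitotic entry, had 242, 178 and 232 normalized reads in WT against 441, 537 and 428 in *hand2* OE (log2 fold change 1.11 ± 0.16, adjusted p = 0.0052). The mitotic kinesin gene *kif20a* had 122, 138 and 106 in WT against 272, 420 and 376 in *hand2* OE, and *aurkb*, the kinase of the chromosomal passenger complex, had 168, 140 and 198 against 336, 436 and 329. The groups did not overlap in any of the 3 genes. The replicative helicase genes *mcm5* and *mcm6* rose by 0.60 and 0.59 on the log2 scale, and *mki67* had 704, 804 and 798 in WT against 889, 1293 and 1026 in *hand2* OE without being called. *ccnd1* had 1125, 1134 and 1053 in WT against 959, 1205 and 1116 in *hand2* OE. Without *hand2* OE replicate 2, 5 of the 18 stayed called, *mcm5* and *mcm6* not among them, the median was 0.43 and 65 of 69 genes tested remained above 0. In limma without the trend 0 of the 18 were called, with adjusted p values from 0.053.

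Of 60 BMP pathway genes, 9 rose (15%, against 2.53% of all genes) and 0 fell, and of the 16 Nodal and left-right genes 3 rose (18.8%) and 0 fell. Without *hand2* OE replicate 2, 5 of the 9 and 2 of the 3 stayed called, and without the trend 3 and 1. *bmp3*, an atypical BMP that antagonizes others, had 67, 55 and 82 normalized reads in WT against 290, 382 and 331 in *hand2* OE (log2 fold change 2.29 ± 0.22, adjusted p = 9.3e-04). The ligand genes *bmp2a* (194, 189 and 196 against 359, 380 and 406) and *bmp6* (233, 175 and 181 against 472, 392 and 446) rose, and so did the secreted modulators *bmper*, *fstl1a* and *nog1*, the last with a call that was lost in 7 of 15 alternatives. *bmp4*, the most abundant BMP ligand named, was slightly lower, with 3118, 3171 and 3163 in WT against 2898, 2630 and 2861 in *hand2* OE (−0.17 on the log2 scale, adjusted p = 0.045). *spaw*, the Nodal ligand of the left lateral plate, had 13, 3 and 9 in WT against 104, 151 and 205 in *hand2* OE (4.17 ± 0.57 on the log2 scale, adjusted p = 0.0047), while its target *lft2* had 1550, 1600 and 1566 in WT against 1612, 1408 and 1584 in *hand2* OE.

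In the FGF pathway 6 of 44 genes rose (13.6%) and 2 fell (4.55%), against 2.53% and 1.57% of all genes. Of the receptor tyrosine kinase genes, *fgfr4* rose from 1112, 1126 and 1187 to 2165, 1956 and 2027 (log2 fold change 0.84 ± 0.06, adjusted p = 1.6e-04) and *fgfr3* from 425, 373 and 465 to 1010, 970 and 898. *fgfr2* was not called, with a log2 fold change of 0.23 to 0.29 over the alternatives. *fgf10b* had 18, 17 and 29 normalized reads in WT against 115, 126 and 100 in *hand2* OE. The ligand genes *fgf20b* and *fgf17* fell, *fgf20b* from 83, 100 and 119 to 24, 31 and 36. Both of these calls were lost without *hand2* OE replicate 2 (adjusted p = 0.054 for each), and 4 of the 6 rises stayed called. The transcriptional readouts of FGF signalling were not called, with *spry4* at 3089, 2944 and 2775 in WT against 2640, 2615 and 2762 in *hand2* OE and *etv5b* at 2418, 2516 and 2384 against 2348, 2089 and 2296.

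Of 71 Wnt pathway genes 4 rose and 4 fell, 5.63% in each direction, against 2.53% and 1.57% of all genes. The 4 that rose were the secreted antagonists *sfrp5*, *wif1* (107, 157 and 103 against 336, 347 and 331) and *dkk1a* (4, 0 and 0 against 30, 68 and 55), and the ligand *wnt11f2*. The 4 that fell were the nuclear effectors *lef1*, from 953, 951 and 916 to 421, 646 and 409 (log2 fold change −0.97 ± 0.16, adjusted p = 0.010), and *tcf7l1b*, the receptor *fzd5* and the ligand *wnt5b*, from 955, 908 and 862 to 634, 535 and 511. The *hand2* OE libraries were below every WT library in *lef1* and *wnt5b*. The calls of *dkk1a*, *wnt11f2* and *fzd5* were lost without *hand2* OE replicate 2. In limma without the trend 2 of the 4 rises and 0 of the 4 falls stayed called. *ctnnb1*, the gene of β-catenin, had 3637, 3721 and 3594 in WT against 4125, 3691 and 4052 in *hand2* OE and was not called.

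In the retinoic acid list 5 of 30 genes rose (16.7%, against 2.53% of all genes) and 0 fell. The 5 included both making and breaking steps. Of the 5, 3 stayed called without *hand2* OE replicate 2 and 2 without the trend. The retinol dehydrogenase *rdh10a* had 140, 235 and 259 normalized reads in WT against 607, 634 and 660 in *hand2* OE (log2 fold change 1.63 ± 0.21, adjusted p = 0.0037), and *cyp26b1* had 156, 158 and 152 against 501, 695 and 430 (1.77 ± 0.18, adjusted p = 0.0012). *hhip* was the single call among 20 Hedgehog genes (5%), and the co-receptor *cdon* was higher by 0.50 on the log2 scale (adjusted p = 0.0021) but under 1.5-fold. Of 40 Notch genes *nrarpa* rose and its paralog *nrarpb* fell, 2.5% in each direction and near the shares of all genes (2.53% and 1.57%), and both calls were lost without *hand2* OE replicate 2 and without the trend. Of 21 TGF-β genes *tgfb1a* rose (4.76%) and *ltbp1* and *tgfbr3* fell (9.52%), against 2.53% and 1.57% of all genes. Of these, *ltbp1* alone stayed called without that library. Of the 9 PDGF ligands and receptors tested limma called 0, with 3 at an unadjusted p under 0.05, and *pdgfra* passed the adjusted p (0.018) at a log2 fold change of 0.49. Leaving out *hand2* OE replicate 2 gave *pdgfra* 0.067 as its adjusted p in limma, and fitting without the trend gave 0.15.

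Of 51 sarcomere genes 1 rose, the desmin gene *desmb* from 1, 0 and 17 to 78, 67 and 107, and 1 fell, *myom2a* from 794, 695 and 636 to 494, 425 and 483, with a median log2 fold change of −0.04. That is 1.96% in each direction, near the shares of all genes (2.53% and 1.57%). Both calls were lost without *hand2* OE replicate 2. Smaller differences were more frequent, with 18 of the 51 at an unadjusted p under 0.05 in limma, 12 lower and 6 higher. An adjusted p of 0.05 or less at any fold was reached by 10 of the 51. Of all genes 20.9% and 6.63% did so. The atrial myosin gene *myh6* had 5207, 5304 and 4724 normalized reads in WT against 4770, 4286 and 4514 in *hand2* OE, and the titin gene *ttn.2* had 24492, 27488 and 23552 against 23671, 23106 and 26094. Neither was called. Of 33 genes of calcium handling and ion channels 0 rose and 4 fell (12.1%, against 1.57% of all genes), with 13 lower and 2 higher at an unadjusted p under 0.05. Those that fell were *cacna1c*, the pore subunit of the L-type calcium channel (966, 1119 and 989 against 786, 536 and 505), its auxiliary subunit *cacna2d1a*, the connexin *gja3* and *popdc3*. None of these 4 calls held without *hand2* OE replicate 2, where the adjusted p lay between 0.062 and 0.10, or without the trend. In the list of respiratory chain and metabolism 2 of 45 genes rose (4.44%, against 2.53% of all genes). These were the fatty acid binding protein gene *fabp11a* and the phosphatase gene *alpl*, neither of them called without *hand2* OE replicate 2. The list's count at an unadjusted p under 0.05 ran the other way, 16 lower and 2 higher, and *ldha* was lower by 0.38 on the log2 scale (adjusted p = 0.0095), under 1.5-fold.

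Among 55 cardiac transcription factors 3 rose (5.45%) and 2 fell (3.64%), against 2.53% and 1.57% of all genes. In limma without the trend 0 of the 3 rises and 1 of the 2 falls stayed called. *isl1*, a LIM homeobox gene of second heart field and venous pole cells, had 124, 253 and 149 normalized reads in WT against 466, 521 and 462 in *hand2* OE (log2 fold change 1.52 ± 0.24, adjusted p = 0.0081). The orphan receptor gene *nr2f1b* and the shear-responsive gene *klf2a* rose as well, *nr2f1b* without a call when *hand2* OE replicate 2 was left out. *irx4a*, a ventricular Iroquois factor in other vertebrates, fell from 507, 499 and 461 to 238, 270 and 275 (−0.90 ± 0.11 on the log2 scale, adjusted p = 0.0031), and the GATA cofactor gene *zfpm2a* fell from 402, 542 and 484 to 273, 305 and 291. The central cardiac factors *nkx2.5* and *tbx20* were level, *nkx2.5* at 1803, 1792 and 1798 in WT against 1927, 1734 and 1935 in *hand2* OE and *tbx20* at 1113, 1028 and 1203 against 1268, 975 and 1108. Of the 55 factors, 23 were at an unadjusted p under 0.05 in limma, 10 higher and 13 lower. An adjusted p of 0.05 or less at any fold was reached by 12. Of all genes 20.9% and 6.63% did so. The E proteins with which Hand2 pairs were not called, *tcf3a* at 569, 532 and 496 against 425, 507 and 493 and *tcf12* at 954, 816 and 894 against 1064, 1148 and 1052. The forkhead gene *foxf2a* went from 11, 6 and 0 to 180, 219 and 144 (5.36 ± 0.87 on the log2 scale, adjusted p = 0.0094), 1 of 2 forkhead genes that rose out of 37 (5.41%). Its adjusted p was 0.054 without *hand2* OE replicate 2 and 0.088 without the trend, and 0 forkhead rises stayed called without that library.

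**Figure D4:**
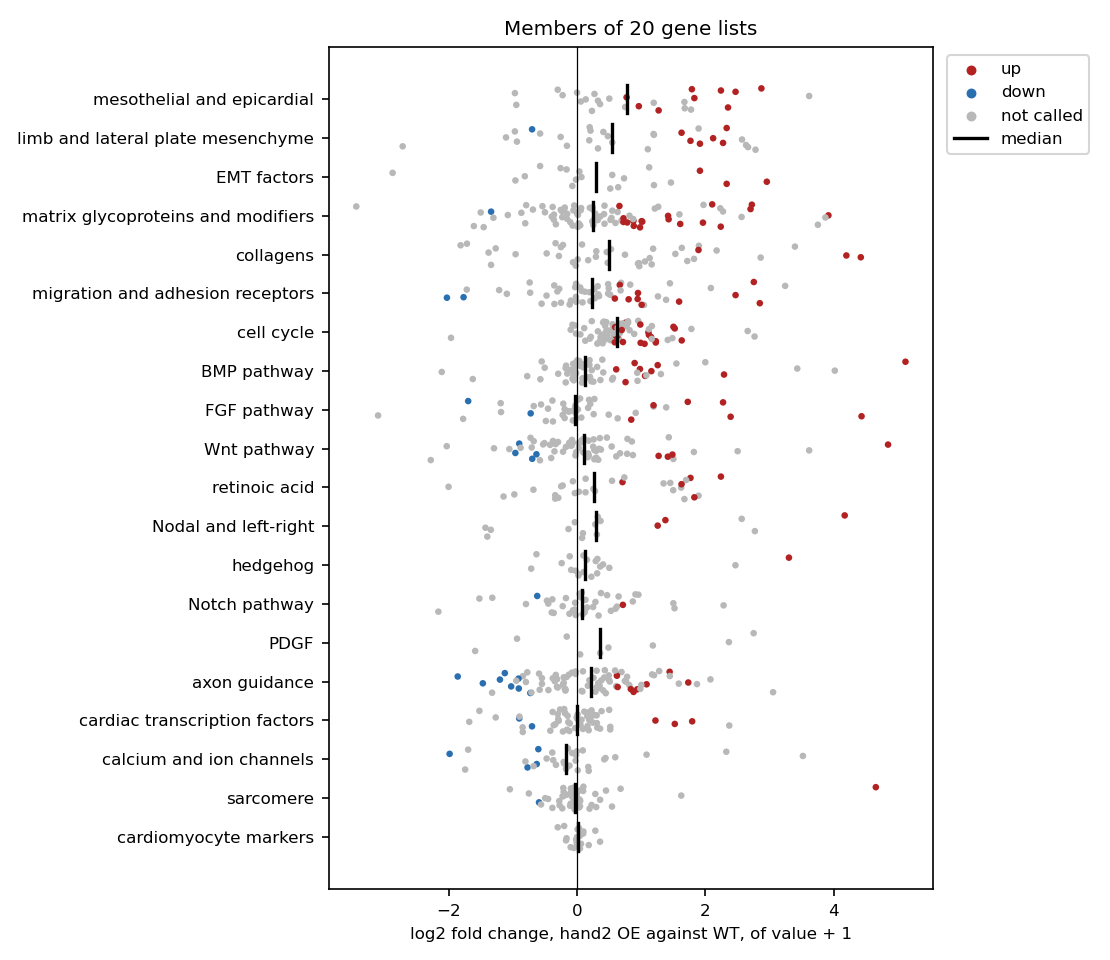
Log2 fold change of value + 1 (x axis, *hand2* OE against WT) of every tested member of 20 gene lists, with upregulated genes in red, downregulated genes in blue, others in grey and the median of each list as a black line. The median of the mesothelial and epicardial list is 0.77, that of the cell cycle list 0.62 and that of the cardiomyocyte markers 0.02.

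The largest fall was that of 1 gene that the *hand2* OE libraries lacked. *cyth4a*, which encodes a cytohesin, an exchange factor for ARF GTPases, had 258, 182 and 215 normalized reads in WT and 0 in all 3 *hand2* OE libraries, at least 72.8-fold lower when the *hand2* OE mean is set to a floor of 3 (adjusted p = 3.8e-04). In the loss-of-function experiment, which was scaled separately, *cyth4a* was low in both groups and not called. It had 9, 10 and 6 in *hand2 FLD*+/? siblings and 0, 6 and 7 in *hand2 FLD*-/-, so that the WT libraries of this experiment were the high ones. *sulf2b*, an extracellular sulfatase that edits heparan sulfate, had 1854, 1800 and 1876 in WT against 833, 776 and 617 in *hand2* OE (log2 fold change −1.32 ± 0.10, adjusted p = 3.6e-04) and was among the 5 most abundant genes that fell. *avpr1ab*, a vasopressin-type receptor gene, fell from 685, 536 and 568 to 166, 160 and 209. In all 3 genes the highest *hand2* OE library was below the lowest WT library.

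Axon guidance genes were called in both directions, 8 up and 8 down of 84 (9.52% each way, against 2.53% and 1.57% of all genes). Without *hand2* OE replicate 2, 3 of the rises and 5 of the falls stayed called, and without the trend 1 and 2. *sema3aa*, a secreted repulsive semaphorin, fell from 1750, 1666 and 1689 to 888, 938 and 878 (log2 fold change −0.92 ± 0.05, adjusted p = 1.3e-04). The Slit receptor *robo1* fell from 498, 623 and 513 to 118, 160 and 172 (−1.86 ± 0.17 on the log2 scale, adjusted p = 8.9e-04) and *robo3* from 675, 633 and 589 to 353, 235 and 288, whereas their ligand gene *slit3* rose from 816, 730 and 831 to 1454, 1469 and 1321. The ephrins split in the same list, since *efna1a* and *efnb1* rose and *efna5a*, *efnb3a* and *efnb3b* fell, though *efna1a*, *efnb1* and *efnb3a* lost their calls without *hand2* OE replicate 2. The extracellular matrix gene *tnr* of the nervous system fell from 268, 464 and 229 to 88, 44 and 73, the presynaptic gene *pclob* from 365, 436 and 350 to 23, 112 and 78, and the microtubule gene *map1aa* from 423, 472 and 588 to 218, 84 and 146. Of 43 neural markers 1 was called up, the tubulin gene *tubb5* (2.33%, against 2.53% of all genes), and 0 were called down. At an unadjusted p under 0.05, 4 were higher and 0 lower. The median log2 fold change of the list was −0.04, with 21 above 0. Without *hand2* OE replicate 2, the library with the most neural marker reads, the median was −0.44 and 10 of 43 were above 0. The call of *tubb5* was lost there, which left 0 called. *elavl3* had 282, 161 and 330 in WT against 356, 378 and 141 in *hand2* OE. The nuclear receptor gene *nr4a1*, one of the 5 most abundant genes that fell, went from 2007, 1905 and 1777 to 1185, 1316 and 1210.

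Few markers of other cells were called in number, though some of these short lists had shares above the 2.53% up and 1.57% down of all genes. The share called up was 12.5% for yolk syncytial layer and 8% for neural crest markers. That called down was 11.1% for skeletal muscle and somite markers. The yolk and liver genes *apoeb* (460, 455 and 452 against 977, 984 and 1054) and *tfa*, the transferrin gene (408, 411 and 291 against 1241, 1365 and 1512), were higher in each *hand2* OE library, with a log2 fold change of 1.14 ± 0.07 and 1.90 ± 0.14 (adjusted p = 1.4e-04 and 2.8e-04). The summed level of the 16 yolk syncytial layer markers was 4937 to 5211 in WT and 6586 to 7157 in *hand2* OE. Of 25 neural crest markers *snai2* and *twist1a* rose, with a summed level of 2387 to 2524 in WT and of 3186, 4893 and 3446 in *hand2* OE, while the defining *sox10* was at 0, 35 and 19 in WT and at 65, 150 and 41 in *hand2* OE. Of 38 endothelial and endocardial markers *klf2a* was the only call, 2.63% against 2.53% of all genes. *kdrl* had 18, 99 and 0 in WT against 71, 84 and 89 in *hand2* OE, and *cdh5* had 125, 198 and 156 against 142, 83 and 133. Of 23 erythroid and myeloid markers *rhag* rose (276, 280 and 261 against 577, 734 and 499), whereas the globin gene *hbae1.1* was at 0 in every library except WT replicate 2, with 40. Of 27 skeletal muscle and somite markers 3 fell, *myl1*, *tnni2b.1* and *tnnt3b*, the last not called without *hand2* OE replicate 2, and the myogenic factor *myod1* was at 0 to 11 in all libraries. In bulk samples, fewer cells of a type and less RNA per cell cannot be told apart, and the part of such cells in the rises of keratin, mesenchyme and cell cycle genes was not tested.

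The same genes can be read in the loss-of-function experiment, in which *hand2 FLD*-/- cardiomyocytes were compared with *hand2 FLD*+/? siblings. Its table was scaled separately, so that values are given side by side and no test runs across both. Of the 414 upregulated genes tested in both, 56% were downregulated in *hand2 FLD*-/- and 5.8% upregulated, where 9.84% and 9.18% of all 15931 genes were (9.43% and 9.09% of the 17877 tested in that experiment). Of the 255 downregulated genes 25.9% were upregulated in *hand2 FLD*-/- and 17.6% downregulated. All 9 mesothelial genes, all 3 collagens and 14 of the 18 matrix genes that rose were called down in *hand2 FLD*-/-. Of the 18 cell cycle genes that rose, 0 were called down there and 3 were called up. Smaller differences went both ways, with *cdc25b* at −0.42 and *chaf1a* at 0.56 on the log2 scale, neither of them called. *dcn* had 2211, 2294 and 2205 in siblings and 196, 402 and 198 in *hand2 FLD*-/-, and *jam2b* 1125, 1180 and 1178 against 76, 133 and 98. Among the genes that fell in *hand2* OE, *sulf2b* had 1301, 1313 and 1600 in siblings and 5137, 5008 and 5440 in *hand2 FLD*-/-, and *met* 175, 145 and 62 against 771, 693 and 664, both called up there. *irx4a* and *itga11a* were lower in both experiments, and *nr2f1b* and *cyp26b1* were higher in both. *fgf10a* rose in *hand2* OE and had 1052, 1142 and 1151 in siblings and 972, 1032 and 1058 in *hand2 FLD*-/-, without a call.

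The controls of both experiments had different levels of these genes. Per 1000000 normalized reads of each library, the 414 genes had a median of 25.7 in WT, 64.4 in *hand2* OE, 98.5 in *hand2 FLD*+/? siblings and 52.8 in *hand2 FLD*-/-. For 81.4% of them the level in *hand2 FLD*+/? siblings was above that in *hand2* OE and for 95.7% above that in WT, where this was so of 56.2% and 54.7% of all genes tested in both. The 255 downregulated genes had medians of 71.2 in WT, 38.3 in *hand2* OE, 36.8 in siblings and 42.5 in *hand2 FLD*-/-, and 5.1% of them were higher in siblings than in WT. The genes were chosen with the WT and *hand2* OE values, so that these shares are a description, and experiment, scaling and genotype of the siblings cannot be told apart.

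**Figure D5:**
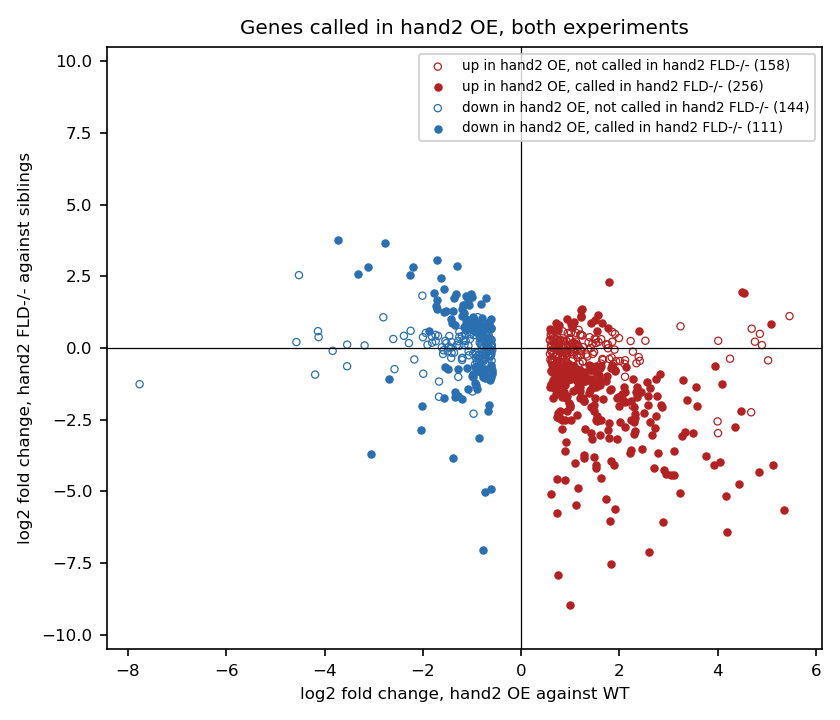
Log2 fold change in *hand2* OE against WT (x axis) and in *hand2 FLD*-/- against siblings (y axis) of the genes called in *hand2* OE and tested in both experiments, 414 upregulated (red) and 255 downregulated (blue). Filled points are also called in *hand2 FLD*-/-, and most filled red points lie below 0.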

How the data were processed

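Sorted 20 hpf cardiomyocytes were measured in 3 *hand2* OE and 3 WT libraries made with SMART-Seq HT. Per the methods, Trimmomatic 0.39 trimmed the reads, STAR 2.7.10a placed them on danRer11 with the Ensembl annotation, and featureCounts 2.0.2 summed those touching exons, leaving out reads of several genes or places. Use of strand is not given in the sources used here, so overlapping genes are less certain. Each deposited value is a score, a normalized count with 1 factor per library, rounded by the authors, who called genes with DESeq2 1.30.1. Whole reads could not be recovered uniquely, so limma 3.58.1 in R 4.3.3 (trend on abundance) was fitted to log2(value + 1) of genes averaging 5 or more, and depth was estimated from missing and doubled whole numbers. The steps were tested on simulated data.

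Named genes were *hand2*, the 12 largest rises and 12 largest falls (mean of 100 or more, no overlap), the 8 smallest p and 5 highest levels in each direction, and from 38 hand-written lists up to 8 called and 4 abundant uncalled members. Others, chosen after their values were seen, were *cav2*, *tes*, *kitlga*, *poc1b*, *dusp6*, *fn1a*, *aldh1a2*, *tcf21*, *tbx18*, *mki67*, *tcf3a*, *tcf12* and markers of cell types. The members and lists were chosen with earlier results of these data known. Alternatives were other pseudocounts, filters, scalings (trimmed means of M values, equal totals), variance models, fold thresholds, a replicate block and each library left out. Replicate numbers of both groups did not pair the libraries (correlations of deviations −0.02, −0.10 and −0.04).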

Additional observations from a re-analysis of the deposited data

How the results depend on the processing

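Against 418 upregulated and 259 downregulated genes, limma without the trend called 133 and 70, of which 117 and 57 were among them, and gave *hand2* an adjusted p of 0.18 at the same log2 fold change of 0.32. A fold threshold of 2 left 268 and 119, and none left 569 and 525. With single libraries left out, upregulated genes numbered 187 (without *hand2* OE replicate 2) to 323 and downregulated genes 124 (without WT replicate 2) to 256, and 168 and 87 genes stayed called in each of the 6 fits. The *hand2* log2 fold change then lay between 0.29 and 0.37, with an adjusted p up to 0.042. The upregulated share of calls was 61.7%, at its lowest 52% (no fold threshold), 52.4% with *hand2* OE replicate 2 left out, and at its highest 71.8% (WT replicate 1 left out). Other pseudocounts, filters and scalings and robust limma kept both counts within 1.5 times. The replicate block, which the pairing check does not ask for, gave 286 and 180, with 279 and 173 of the original genes. In every alternative except the fold thresholds, 88 upregulated and 38 downregulated genes stayed called. No named gene that was called changed sign. Named calls that held without *hand2* OE replicate 2 and were lost without another single library were those of *itga11a*, *ncam2*, *s1pr5a*, *tcf7l1b*, *klf2a*, *zfpm2a*, *efnb3b*, *nr4a1*, *pclob* and *myl1*. A count model on whole reads and promoter motifs were planned and not run. Depth limits low genes most, since the median SE of a log2 fold change was 1.19 at a WT mean of 3 to 10 and 0.06 at 1000 or more, and reads carry no molecular identifiers.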

Other observations

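A second cluster of neighbours lay on chromosome 4, where several genes named after the clone si:dkey-21h14 fell. It was picked after its values were seen. Between 10972585 and 11122638 (danRer11), 5 of 10 neighbouring tested genes fell, *tmtc2a* and 4 genes of that name. Of these, ENSDARG00000094603 (*si:dkey-21h14.12*), had 124, 158 and 132 normalized reads in WT against 38, 27 and 20 in *hand2* OE. The table gives 3 of these genes the same symbol, and reads that fit several places were left out, so the split of reads between them is uncertain.

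Of 16 tested bHLH partners and Id inhibitors 1 rose (6.25%) and 0 fell, and of 37 forkhead factors 2 rose (5.41%) and 1 fell (2.7%). Of 72 stress and immediate early genes 2 rose and 3 fell, 2.78% and 4.17% against 2.53% and 1.57% of all genes. At an unadjusted p under 0.05, 9 of them were higher and 10 lower. None of these rises stayed called without *hand2* OE replicate 2. Among markers of other cell types, 2 of 14 pronephros genes (*wt1b* and *slc9a3r1a*) rose, 2 of 31 epidermal genes (*krt8* and *krt18a.1*) rose, and 1 of 15 melanophore and pharyngeal arch genes (*prrx1a*) rose. These shares were 14.3%, 6.45% and 6.67%, against 2.53% of all genes. Of 4 hatching gland genes 1 (*prdm1a*) fell, without a call when *hand2* OE replicate 2 was left out. limma called 0 of 15 endoderm genes and 0 of 19 notochord genes, with 4 and 2 at an unadjusted p under 0.05. Of 9 genes for which the study lists primers of overexpression constructs 5 rose and 1, *fgf17*, fell, the fall without a call when *hand2* OE replicate 2 was left out. The 9 include *fgfr2*, which is not among the injected candidates that the study names. The study picked its candidates as lower in *hand2 FLD*-/- and higher in *hand2* OE cardiomyocytes. Their count is therefore not independent evidence.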
